A study of Mus musculus with 4 samples.

Results

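The lysine demethylase LSD1 and the CoREST complex that carries it were followed across all 4 libraries of a mouse mammary tumor study. The 9 genes were chosen by symbol from the deposited table: the demethylase gene Kdm1a, the scaffold genes Rcor1 and Rcor3, the deacetylase genes Hdac1 and Hdac2, the subunit genes Hmg20b, Phf21a and Zmym2, and Gfi1, the gene of a DNA-binding recruiter. All 9 had a row among 23951 gene rows, and all 9 were among the 11138 genes tested.

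LSD1 removes methyl groups from lysines of histone H3 and acts mainly inside CoREST, where an RCOR scaffold protein joins it to a histone deacetylase. The complex represses genes to which DNA-binding factors bring it, and factors with a SNAG domain, such as GFI1 and the SNAIL proteins, do so by binding the catalytic pocket of LSD1. In blood, GFI1 is needed for neutrophil and lymphocyte development. In mammary epithelium LSD1 has been studied in luminal identity and in invasion.

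RNA-seq was made from MMTV-PyMT mice labelled female, in which a mammary promoter drives the polyoma middle T oncogene and tumors follow. All 4 libraries share this transgene, the R26Y reporter (a Rosa26 allele that turns on yellow fluorescent protein after Cre acts) and an intraductal dose of Ad-K8-Cre, an adenovirus with Cre under a Krt8 promoter. Cells with the reporter signal were sorted 2 to 3 months later. The 2 libraries titled knockout, called KO-labelled here, are described as carrying the conditional alleles Lsd1L/L, and the 2 wild-type (WT) libraries as Lsd1+/+. In the labels the tissue field of the KO-labelled pair also reads Lsd1+/+, while title and genotype field read knockout. The female label was checked as well. Xist, the RNA that coats the inactive X chromosome, was at 0 and 0.00965 FPKM in the KO-labelled libraries and at 3.31 and 3.93 FPKM in the WT libraries, so in Xist the KO-labelled pair goes against the female label. Tsix, which overlaps Xist on the opposite strand, was at 0.0204 and 0.0283 FPKM in the KO-labelled libraries and at 5.99 and 9.28 FPKM in WT; whether counting used strand is not known. The 4 Y-linked genes Ddx3y, Eif2s3y, Kdm5d and Uty were listed at 0 in every library. What sets the pairs apart in Xist cannot be told apart from genotype in any comparison below. Animal ages are not given, and no label ties the libraries to separate animals, so the p-values below reflect spread among these 4 libraries, which may be technical. Since Cre acted in single cells, a sorted population can hold cells with and without the deletion.

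Values were FPKM, which divide out the length of the transcript and the size of the library, so levels of different genes can be set side by side. Taking the second KO-labelled library as 1, the steps between low values put depth at 0.93 in the first and at 1.03 and 0.85 in the WT libraries. Across genes, log2(FPKM + 1) correlated at 0.98 within the KO-labelled pair and at 0.85 within the WT pair; genes are not independent replicates. The labelled tissue was checked against markers. The 7 luminal epithelial markers were read in every library, with a summed level of 697.5 and 717.0 FPKM in the KO-labelled libraries and 11675 and 2606 FPKM in the WT libraries. The 10 lymphocyte markers summed to 1802 and 1701 FPKM in the KO-labelled libraries and 14.8 and 61.9 FPKM in the WT libraries. The 7 macrophage markers summed to 217.5 and 206.9 FPKM in the KO-labelled libraries and 166.3 and 4525 FPKM in the WT libraries. In such bulk samples, fewer cells of a type and less RNA per cell cannot be told apart.

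Promoter windows from RefSeq (build GRCm38.p6), running from 250 bases before to 50 bases after a transcript start, matched 8 of the 9 members, the other being Hdac1. The windows of Gfi1 and Kdm1a are shown, since Gfi1 had the largest difference among the members and Kdm1a was the targeted gene. They lie at chr5:107725756-107726055 and chr4:136602674-136602973, both on the minus strand, and are written 5′ to 3′ along it, with each CG in capitals.
Gfi1: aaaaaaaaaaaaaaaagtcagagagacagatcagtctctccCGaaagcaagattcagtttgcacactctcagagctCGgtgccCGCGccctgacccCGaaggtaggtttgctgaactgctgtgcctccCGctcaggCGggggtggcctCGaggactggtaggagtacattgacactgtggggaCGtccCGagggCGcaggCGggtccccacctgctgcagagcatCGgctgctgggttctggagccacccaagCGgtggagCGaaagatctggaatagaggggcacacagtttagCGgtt
Kdm1a: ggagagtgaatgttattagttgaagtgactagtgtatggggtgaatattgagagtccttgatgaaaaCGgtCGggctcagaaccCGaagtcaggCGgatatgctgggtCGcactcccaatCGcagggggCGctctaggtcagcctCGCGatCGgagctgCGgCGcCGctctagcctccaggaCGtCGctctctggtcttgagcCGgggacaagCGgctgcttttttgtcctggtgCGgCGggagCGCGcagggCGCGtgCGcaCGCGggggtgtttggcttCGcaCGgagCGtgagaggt
The Gfi1 window held 16 CG dinucleotides and the Kdm1a window 29, against a median of 7.0 over 32851 windows of the same length, 94.6% of which held at least 1. CG reads the same on both strands. The first windows of Rcor1, Rcor3, Hdac2, Hmg20b, Phf21a and Zmym2 held 29 to 47, and 87.1 to 98.6% of all windows held fewer. For Gfi1 that share was 67.0%, and a second Gfi1 window held 10. Among the first windows of the 8 members, that of Gfi1 held the fewest. A second Phf21a window held 1, more than 5.43% of all windows, so this order holds for first windows only. The core that GFI1 binds, AATC, was counted on both strands and occurred once in each printed window. It was present in 73.1% of all windows, so its presence sets neither gene apart.

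Hdac1, a deacetylase that CoREST shares with the NuRD and Sin3 complexes, was the most abundant member in both groups. In the KO-labelled libraries the order of mean levels was Hdac1, Hdac2, Kdm1a, Rcor1, Hmg20b, Zmym2, Gfi1, Rcor3 and Phf21a, and no neighbours in it overlapped. In the WT libraries it was Hdac1, Kdm1a, Hdac2, Hmg20b, Rcor1, Zmym2, Rcor3, Phf21a and Gfi1. There Hdac1 and Kdm1a, Kdm1a and Hdac2, Hmg20b and Rcor1, and Zmym2 and Rcor3 overlapped, and so did not differ beyond their spread. By mean level over the 4 libraries Hdac1 stood above 89.2% of the genes tested, Kdm1a above 80.9%, Gfi1 above 14.8% and Phf21a above 8.86%.

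**Figure D1:**
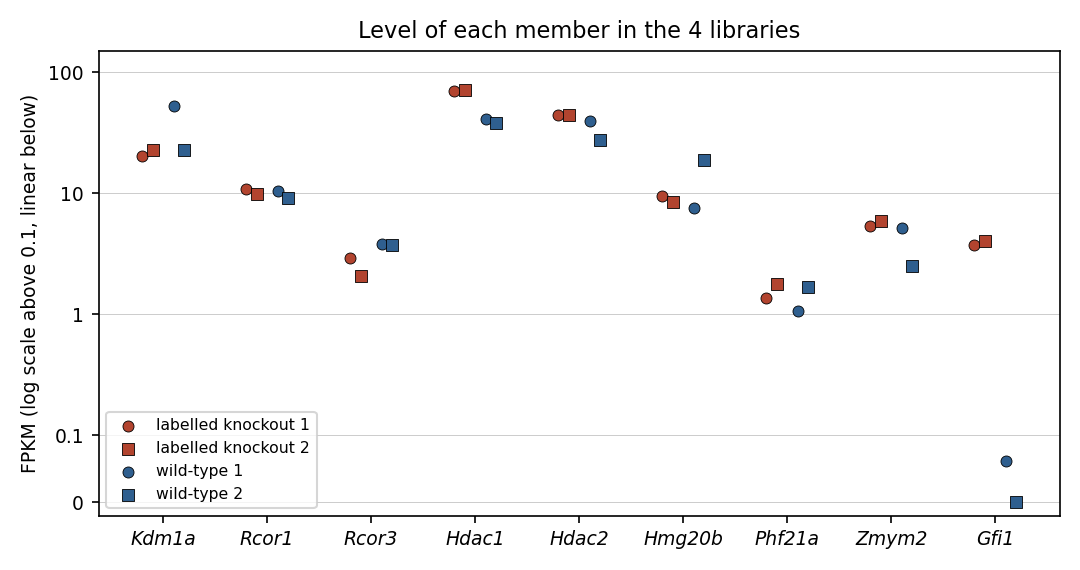
FPKM of the 9 members, 1 point per library, with the KO-labelled libraries (red) left of WT (blue). The axis is logarithmic above 0.1 FPKM and linear below. Gfi1 lies at 3.71 and 3.98 FPKM in the KO-labelled libraries and at 0.0618 FPKM and 0 in WT, while Kdm1a stands apart in 1 WT library only.

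Kdm1a, the gene targeted for deletion, did not separate the groups by more than the WT spread. Its level was 20.2 and 22.8 FPKM in the KO-labelled libraries, against 52.5 and 22.9 FPKM in the WT libraries. The first WT library was high and the other 3 lay close together, with the second WT library just above the higher KO-labelled library. Mean log2(FPKM + 1) differed by -0.67, KO-labelled minus WT (SE 0.46, n = 2 and 2; limma, adjusted p = 0.338). It came to -0.09 when the first WT library was left out and to -1.25 when the second was (limma, adjusted p = 1.04e-05); in both, the spread came from the KO-labelled pair alone, and the lone WT library is assumed to vary like it. The first WT library also had the highest summed luminal marker level, 11675 FPKM, and the part of this in the Kdm1a value was not tested. One value per gene cannot tell RNA with the deleted exons from RNA without them.

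Neither scaffold gene passed. Rcor1 was at 10.7 and 9.83 FPKM in the KO-labelled libraries and at 10.3 and 9.09 FPKM in the WT libraries. The groups overlapped, with a log2 difference of 0.07 (SE 0.21; limma, adjusted p = 0.82), whose sign turned after median centring (-0.02) and quantile normalization (-0.03). Rcor3, a scaffold paralog, was at 2.88 and 2.08 FPKM in the KO-labelled libraries and at 3.76 and 3.72 FPKM in the WT libraries. Both KO-labelled libraries lay below both WT libraries, but the log2 difference of -0.46 (SE 0.24) did not pass (limma, adjusted p = 0.238). It was -0.62 without the first KO-labelled library and -0.29 without the second. Rcor2, the remaining paralog, stayed under the 1 FPKM filter in all 4 libraries, at 0.30 and 0.322 FPKM in the KO-labelled libraries and 0.522 and 0.378 FPKM in WT.

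Of the deacetylases, Hdac1 was at 70.2 and 71.5 FPKM in the KO-labelled libraries and at 41.0 and 38.1 FPKM in the WT libraries. The groups were far apart relative to either pair's spread, and mean FPKM was 1.79 times as high in the KO-labelled libraries. The log2 difference was 0.82 (SE 0.17), with an adjusted p of 0.0506 (limma), just outside the threshold of 0.05. The adjusted p was 0.0437 with a filter at 5 FPKM, the only alternative with all 4 libraries in which Hdac1 passed. It was 0.124 with a replicate block, and 0.0505 to 0.0756 under the 7 remaining alternatives with all 4 libraries (limma, adjusted p). With each library left out in turn the difference stayed between 0.77 and 0.88. Those fits have a single library in 1 group and are given for size only. RefSeq lists Hdac1-ps among the synonyms of Hdac1, and whether reads were shared with a near copy was not tested. Hdac2 was at 44.0 and 44.5 FPKM in the KO-labelled libraries and at 39.5 and 27.6 FPKM in the WT libraries. Its log2 difference of 0.41 (SE 0.25) did not pass (limma, adjusted p = 0.289). It ranged from 0.16 without the second WT library to 0.66 without the first, each resting on a single WT library. The lymphocyte markers were higher in the same KO-labelled libraries (1802 and 1701 FPKM, against 14.8 and 61.9 FPKM in WT), and their part in these differences was not tested.

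The subunit genes Hmg20b, Phf21a and Zmym2 did not pass. Hmg20b, which encodes an HMG-box protein, was at 9.39 and 8.39 FPKM in the KO-labelled libraries and at 7.51 and 18.6 FPKM in the WT libraries. The WT libraries lay on either side of the KO-labelled pair, and the log2 difference of -0.39 (SE 0.48; limma, adjusted p = 0.583) was -0.99 without the first WT library and 0.21 without the second. Both of those fits rest on a single WT library. The high library was the second WT library, which also held the highest macrophage marker sum, 4525 FPKM, and the part of this was not tested.

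Phf21a, whose PHD finger reads unmethylated histone H3, was the lowest member in the KO-labelled libraries and stood above Gfi1 alone in the WT libraries. It was at 1.35 and 1.77 FPKM in the KO-labelled libraries and at 1.06 and 1.67 FPKM in WT, overlapping throughout (log2 difference 0.12, SE 0.24; limma, adjusted p = 0.734). Zmym2, a zinc-finger subunit, was at 5.39 and 5.85 FPKM in the KO-labelled libraries and at 5.18 and 2.48 FPKM in the WT libraries. The first WT library sat just below the KO-labelled pair and the second well below it. The log2 difference of 0.51 (SE 0.36) did not pass (limma, adjusted p = 0.353). It was 0.93 without the first WT library and 0.10 without the second, each resting on a single WT library.

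Gfi1, the recruiter, was the member that passed the test. It was at 3.71 and 3.98 FPKM in the KO-labelled libraries, against 0.0618 FPKM in the first WT library and a listed value of 0 in the second. The KO-labelled libraries lay close together and far above both WT libraries. The rise was 2.23 on the log2(FPKM + 1) scale (SE 0.17, n = 2 and 2; limma, adjusted p = 0.024). Gfi1 passed the filter of 1 FPKM in 2 libraries only through the KO-labelled libraries, so it had to differ once it was tested, and its call is no support beyond its values. A WT level so near 0 lets the pseudocount set the size: the difference was 3.03 with a pseudocount of 0.5 and 4.95 with 0.1. The call ended with no filter on low values (limma, adjusted p = 0.0546) and without the first (0.357) or the second (0.36) KO-labelled library.

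GFI1 is also made by lymphocytes and neutrophil precursors, so their markers are given beside it. All 10 lymphocyte markers rose in the KO-labelled libraries, with none at 0 in any library and a median log2 difference of 5.46. Of the 8 neutrophil markers 6 were tested, and 3 of them, Ngp, Camp and Mmp8, rose, none fell and 3 did not pass. Mmp8 met the 1 FPKM filter only through the KO-labelled libraries. The granule gene Ltf, which encodes lactoferrin, went the other way, at 42.3 and 37.3 FPKM in the KO-labelled libraries and 312.7 and 76.4 FPKM in the WT libraries, and did not pass (log2 difference -1.94, SE 0.74; limma, adjusted p = 0.144). The summed level of all 8 was 1161 and 1238 FPKM in the KO-labelled libraries and 572.0 and 613.7 FPKM in the WT libraries. Most of the KO-labelled sum came from S100a8 and S100a9, neither of which passed (limma, adjusted p = 0.0523 and 0.124). S100a8 was at 614.7 and 643.0 FPKM in the KO-labelled libraries and at 198.8 and 318.1 FPKM in WT. For S100a9 the values were 428.3 and 483.7 FPKM in the KO-labelled libraries and 54.8 and 217.4 FPKM in WT. The precursor granule genes Elane and Mpo were at 0 in both WT libraries, and in the KO-labelled libraries Elane was at 0.117 and 0.163 FPKM and Mpo at 0.482 FPKM and 0. The sort took cells in which Cre under the Krt8 promoter had turned on the reporter, a gate meant to leave such blood cells out. Their part in the Gfi1 level was not tested. Gfi1b, the paralog of the erythroid and megakaryocyte lineages, was listed at 0 in both KO-labelled libraries, and in WT it was at 0 in the first library and at 0.27 FPKM in the second.

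**Figure D2:**
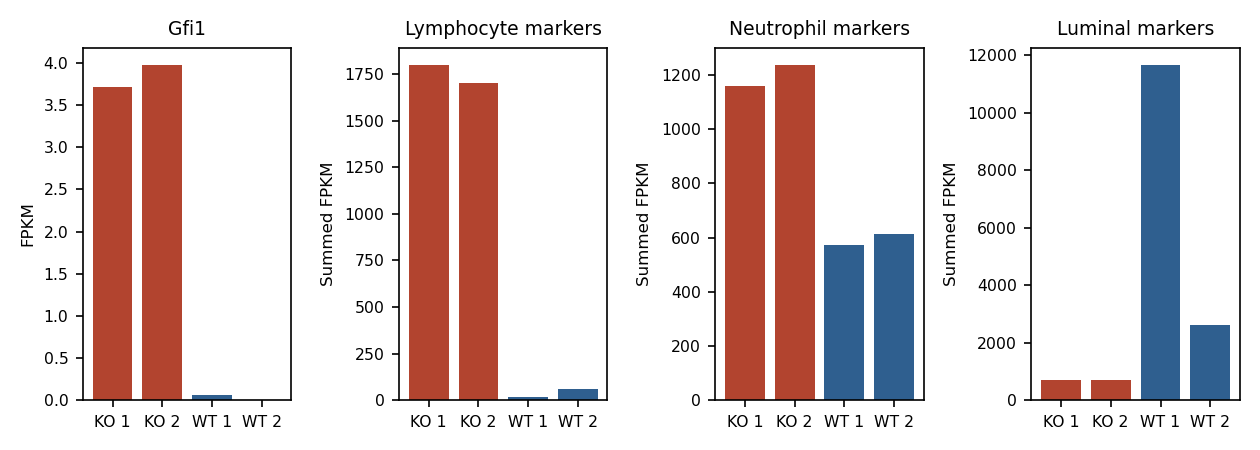
Gfi1 in FPKM and the summed FPKM of 10 lymphocyte, 8 neutrophil and 7 luminal epithelial markers in each library, with the KO-labelled libraries (KO, red) left of WT (WT, blue). Each panel has its own axis from 0. Gfi1 and the lymphocyte and neutrophil marker sums are higher in both KO-labelled libraries, and the luminal sum is higher in both WT libraries. The neutrophil sum of the KO-labelled libraries is mostly S100a8 and S100a9, which did not pass.

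Over the 9 members, 1 passed and 8 did not, beside 16.5% of all 11138 genes tested, of which 9.51% were higher and 6.99% lower in the KO-labelled libraries. The median log2 difference was 0.12 over the members and 0.10 without Gfi1, against 0.08 over all genes tested. The libraries of the groups did not overlap for 6 members, with Hdac1, Hdac2, Zmym2 and Gfi1 higher and Kdm1a and Rcor3 lower in the KO-labelled libraries. Over all genes tested 71.4% did not overlap, 39.3% higher and 32.1% lower, so 6 of 9 is near the background. The only call, that of Gfi1, ended when either KO-labelled library was left out. With any library left out, 1 group holds a single library, and the number of calls over all genes then swung widely. Calls of members in those fits therefore do not set them apart from other genes.

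**Figure D3:**
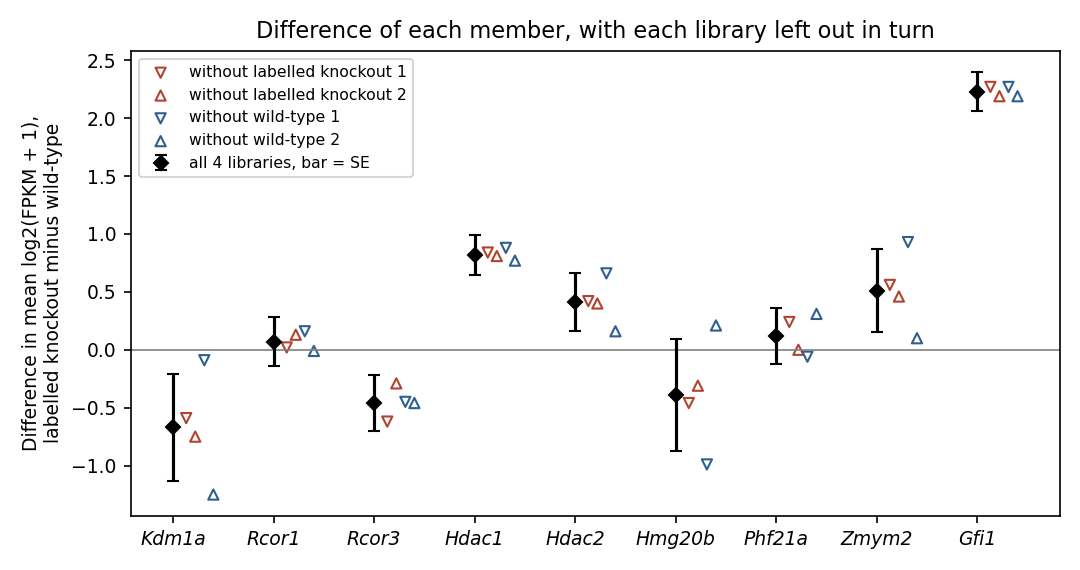
Difference in mean log2(FPKM + 1) between the KO-labelled libraries and WT for each member (black diamonds, bars are SE), with the same value after leaving out each library in turn (open triangles). Kdm1a moves between -1.25 and -0.09 and Hmg20b between -0.99 and 0.21, while Gfi1 stays between 2.19 and 2.27 and Hdac1 between 0.77 and 0.88.

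Spread within a group differed among the members. In the KO-labelled pair the higher library was 1.01 to 1.39 times the lower one for all 9 genes, with Rcor3 the widest. In the WT pair, Hmg20b differed by a factor of 2.47, Kdm1a by 2.30 and Zmym2 by 2.09, while Rcor3 differed by 1.01 and Hdac1 by 1.08. These members were not high in the same WT library: Kdm1a and Zmym2 were higher in the first and Hmg20b in the second.

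Ratios between members within a library do not depend on how libraries are scaled to each other. Kdm1a over Rcor1, the enzyme over its scaffold, was 1.89 and 2.32 in the KO-labelled libraries and 5.08 and 2.51 in the WT libraries. Kdm1a over Hdac1 was 0.288 and 0.319 in the KO-labelled libraries and 1.28 and 0.60 in the WT libraries. Both ratios were lower in both KO-labelled libraries than in either WT library, the first of them by little against the second WT library.

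Hdac1 over its paralog Hdac2 was 1.59 and 1.61 in the KO-labelled libraries and 1.04 and 1.38 in the WT libraries. Rcor1 over Rcor3 was 3.71 and 4.73 in the KO-labelled libraries and 2.75 and 2.45 in the WT libraries. Kdm1a over Kdm1b, which encodes the related demethylase LSD2, was 3.96 and 3.54 in the KO-labelled libraries and 11.5 and 5.16 in the WT libraries. None of these 5 ratios overlapped between the groups, and several share Kdm1a. Among single genes tested 71.4% did not overlap either, and no such share was worked out for ratios. An exact two-sided permutation test of 2 against 2 libraries cannot go below p = 0.333, so the ratios stand as a description.

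The 9 members summed to 167.8 and 170.6 FPKM in the KO-labelled libraries and to 161.0 and 124.1 FPKM in the WT libraries. Hdac1 and Hdac2 together made up 68.0 and 68.0% of that sum in the KO-labelled libraries and 50.0 and 52.9% in the WT libraries. Kdm1a made up 12.0 and 13.4% in the KO-labelled libraries and 32.6 and 18.4% in the WT libraries. The demethylase thus held a smaller share of the summed transcripts in both KO-labelled libraries, and the deacetylases a larger one. Hmg20b made up 5.60 and 4.92% in the KO-labelled libraries and 4.67 and 15.0% in the WT libraries.

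**Figure D4:**
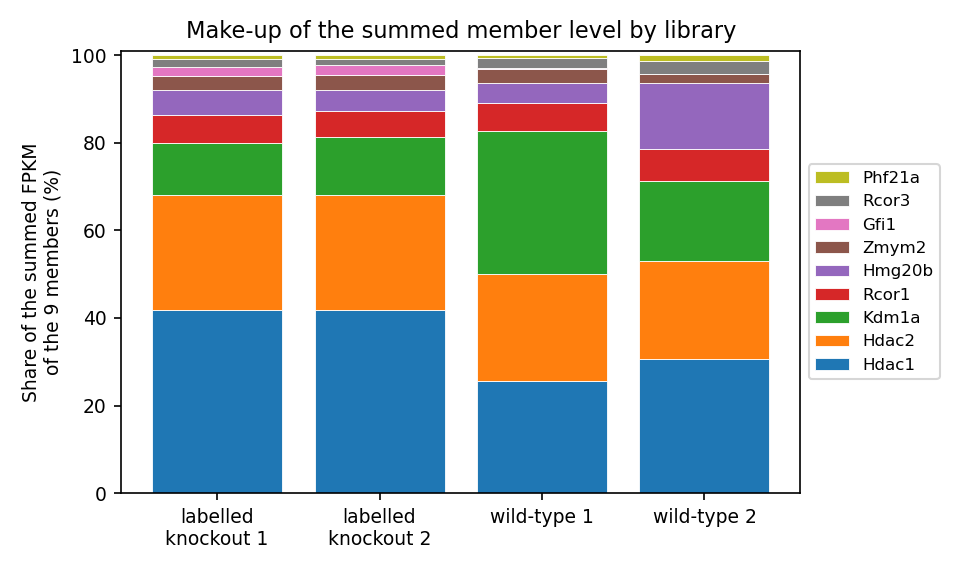
Share of each member in the summed FPKM of the 9 members, 1 bar per library and bars from 0 to 100%, with the KO-labelled libraries on the left. The Hdac1 part is 41.8 and 41.9% in the KO-labelled libraries and 25.5 and 30.7% in WT, and the Kdm1a part is largest, at 32.6%, in the first WT library.

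Among the 10593 named genes ranked by likeness to Kdm1a, measured as the root mean square difference of log2(FPKM + 1) centred on each gene's mean over the 4 libraries, the nearest were Prss12 (0.018), Mfn1 (0.031), Fam109a (0.034), Creb3 (0.035) and Pgm3 (0.044). Prss12, the gene of the serine protease neurotrypsin, was at 4.13 and 4.95 FPKM in the KO-labelled libraries and at 12.1 and 4.82 FPKM in WT. Creb3, the gene of a membrane-bound transcription factor, was at 29.1 and 33.2 FPKM in the KO-labelled libraries and at 75.9 and 35.0 FPKM in WT. Each of the 5 was high in the first WT library alone, like Kdm1a, and they were chosen for that. No member of the complex was near this pattern: the closest, Rcor3, had a distance of 0.457 at rank 2354, and Rcor1 0.521 at rank 3145.

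Of 8 other genes tied to CoREST, including Kdm1b, 6 were tested, and 1 fell, none rose and 5 did not pass. Their median log2 difference was 0.26, and over all genes tested 9.51% rose and 6.99% fell. Ctbp2, a corepressor that joins LSD1 complexes, was at 2.68 and 2.43 FPKM in the KO-labelled libraries and at 13.1 and 11.6 FPKM in the WT libraries. It fell by 1.91 on the log2(FPKM + 1) scale (SE 0.21; limma, adjusted p = 0.0268). Its paralog Ctbp1 was at 63.3 and 56.6 FPKM in the KO-labelled libraries and at 38.6 and 41.9 FPKM in WT (log2 difference 0.56, SE 0.18; limma, adjusted p = 0.106). In both KO-labelled libraries Ctbp2 thus lay below, and Ctbp1 above, either WT library, although Ctbp1 did not pass. Luminal markers, summed to 697.5 and 717.0 FPKM in the KO-labelled libraries and 11675 and 2606 FPKM in WT, were lower in the same libraries as Ctbp2, and their part in its fall was not tested.

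Of 11 other DNA-binding factors known to bring LSD1 to genes, 6 were tested, and 1 rose, 1 fell and 4 did not pass. Their median log2 difference was -0.10, and over all genes tested 9.51% rose and 6.99% fell. Zeb1, a repressor of epithelial genes that T cells also express, was at 6.99 and 6.49 FPKM in the KO-labelled libraries and at 0.0202 and 0.822 FPKM in the WT libraries. It rose by 2.51 (SE 0.36; limma, adjusted p = 0.0338), having passed the filter only through the KO-labelled libraries, and with a pseudocount of 0.1 it no longer passed (limma, adjusted p = 0.0767). Snai1, a SNAG-domain repressor of the epithelial cadherin gene, was at 0.454 and 0.534 FPKM in the KO-labelled libraries and at 1.75 and 1.52 FPKM in WT. It fell by 0.82 (SE 0.16; limma, adjusted p = 0.0493), having passed the filter only through the WT libraries. That call ended in 9 of the 12 alternative settings that left Snai1 in the test, with adjusted p of 0.0605 without a trended and robust prior and 0.0652 with a pseudocount of 0.1 (limma). Its relative Snai2 was at 1.34 and 0.623 FPKM in the KO-labelled libraries and at 7.05 and 4.29 FPKM in WT (log2 difference -1.74, SE 0.35; limma, adjusted p = 0.0505). Of the SNAG-domain genes, Gfi1 was higher, and Snai1 and Snai2 were lower, in both KO-labelled libraries. Gfi1 and Snai1 each passed the filter through 1 group only, and Snai2 did not pass the test. Over all genes tested 71.4% did not overlap between the groups, so nothing is drawn about SNAG-domain genes as a set. Lymphocyte markers were higher in the libraries where Zeb1 was higher, and their part was not tested.

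HDAC1 and HDAC2 also serve the NuRD, Sin3 and related repressor complexes, whose other subunits were read for comparison. Among 12 NuRD genes there were 3 that rose and 9 that did not pass, and none fell, beside 9.51% of all genes tested that rose. The median log2 difference was 0.75 against 0.08 over all genes tested. Rbbp4, a histone-binding WD-repeat subunit, was at 35.5 and 37.7 FPKM in the KO-labelled libraries and at 16.8 and 15.3 FPKM in WT (log2 difference 1.14; limma, adjusted p = 0.0368). Chd3, a remodelling helicase, rose by 1.40 (SE 0.23; limma, adjusted p = 0.0374), and Mbd2, which binds methylated DNA, by 0.89 (SE 0.17; limma, adjusted p = 0.0445). The Mbd2 call ended on rescaling to a common total (0.0548), after median centring (0.0617) and without a trended and robust prior (0.0557). The other 9 ranged from -0.30 to 1.05.

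Among 13 Sin3 genes there were 4 that rose and 9 that did not pass, and none fell, beside 9.51% of all genes tested that rose. The median log2 difference was 0.49. Ing1, a PHD-finger subunit, was at 19.8 and 20.1 FPKM in the KO-labelled libraries and at 6.89 and 6.33 FPKM in WT (log2 difference 1.46, SE 0.20; limma, adjusted p = 0.0309). Arid4b and Arid4a, paralogous chromatin-binding subunits, rose by 1.37 and 1.66 (limma, adjusted p = 0.0338 and 0.0397). Sin3a, the scaffold, was named after its values were seen: it was at 3.83 and 4.77 FPKM in the KO-labelled libraries and at 1.16 and 1.21 FPKM in WT (log2 difference 1.27; limma, adjusted p = 0.041). The scaffold paralog Sin3b was at 110.0 and 112.6 FPKM in the KO-labelled libraries and at 100.5 and 78.2 FPKM in WT and did not pass (limma, adjusted p = 0.293).

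Of 7 genes of NCoR and other class I deacetylases 2 rose, none fell and 5 did not pass. Their median log2 difference was 0.27, and over all genes tested 9.51% rose. Gps2, a subunit of NCoR, was at 45.3 and 45.3 FPKM in the KO-labelled libraries and at 23.5 and 22.6 FPKM in WT (log2 difference 0.95; limma, adjusted p = 0.0433), and its call ended after median centring (0.056). Tbl1xr1, a WD-repeat subunit, rose by 1.09 (SE 0.19; limma, adjusted p = 0.0411), having passed the filter only through the KO-labelled libraries, and its call ended with a pseudocount of 0.1 (0.0536) and after quantile normalization (0.0502). Hdac3, the deacetylase of NCoR, was at 23.6 and 26.6 FPKM in the KO-labelled libraries and at 35.8 and 30.5 FPKM in WT (log2 difference -0.39; limma, adjusted p = 0.234). Hdac1 thus lay higher and Hdac3 lower in both KO-labelled libraries, with neither past the threshold. The scaffold gene Ncor1 had a log2 difference of 1.14 (SE 0.26; limma, adjusted p = 0.0613). Lymphocyte markers were higher in the same libraries as the NuRD, Sin3 and NCoR genes that rose, at 1802 and 1701 FPKM in the KO-labelled libraries and 14.8 and 61.9 FPKM in WT, and their part was not tested.

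Outside the members and the cell type markers, 12 genes are named here as past the threshold. Their calls all ended when either KO-labelled library was left out, as every call in the table did. They also ended with no filter on low values, where 2 genes of the whole table were higher and 0 lower. Neither loss sets these genes apart from others. With a replicate block, where 346 genes were still higher and 155 lower, their calls ended as well.

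**Figure D5:**
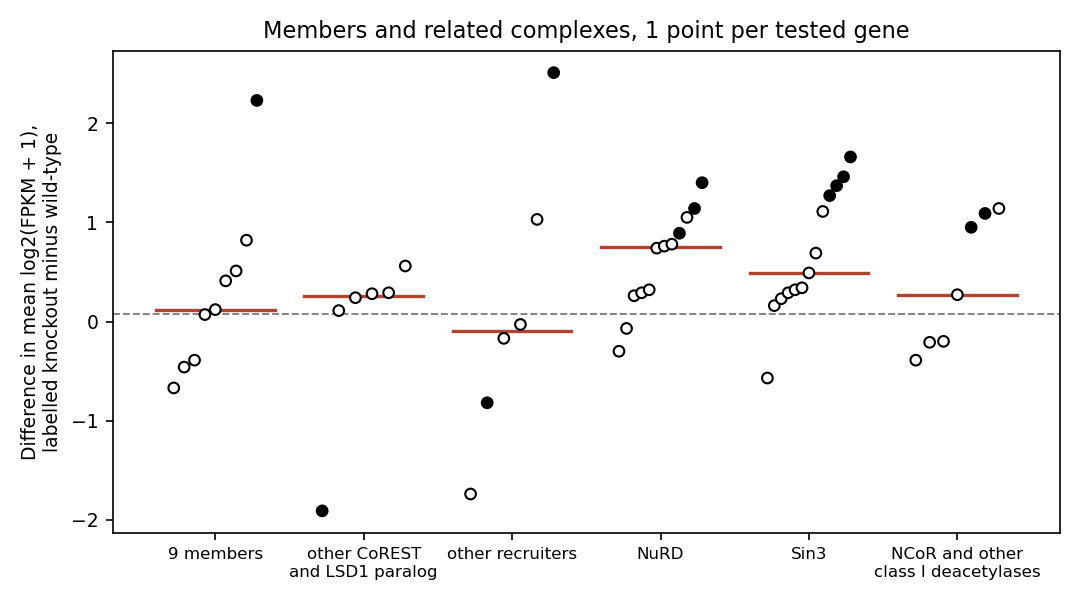
Difference in mean log2(FPKM + 1) between the KO-labelled libraries and WT for each tested gene of the 9 members and of 5 related lists, filled where the adjusted p was under 0.05 (limma). Red lines are list medians, of 0.12 for the members and 0.75 for NuRD, and the dashed line is the median over all genes tested, 0.08.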

How the data were processed

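The 4 RNA-seq libraries of sorted tumor cells were prepared with a low-input SMARTer kit, per the labels' protocols. The authors deposited 1 table of FPKM values; its header names no unit, which was read from the values, since column totals differ and low values lie in steps. The submitters' processing notes name build mm9; which aligner, quantifier and annotation were used is not given in the sources used here. Of 24043 rows, 92 spike-in rows, all at 0, were left out. Within neither group did the 2 libraries share an identical value above 0 in any row.

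Relative depth came from genes under 0.1 FPKM, where 50.4 to 60.4% of ratios between libraries matched whole numbers up to 6 over each other within 0.2%. Read counts were not rebuilt.

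Groups came from sample titles. The 11138 genes that reached 1 FPKM in 2 or more libraries were fitted on log2(FPKM + 1) with limma 3.58.1 (R 4.3.3), genotype as the sole term, trended and robust prior, Benjamini-Hochberg adjustment at 0.05 over all genes tested. Differences on this scale understate changes near the pseudocount. Simulated data were used to test the fit. Symbols were used as in the table, with Emr1 for Adgre1.

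All 9 members are named, and in each other list up to 3 genes by lowest p whose mean was 1 FPKM or more, plus the 5 genes most like Kdm1a; 1 gene that this rule names is not reported here. Sin3a, Sin3b, Hdac3, Kdm1b, Rcor2, Gfi1b, Xist, Tsix and the 4 Y-linked genes fall outside the rule and were chosen after their values were seen. The same holds for Elane, Mpo, Ltf, Ngp, Camp, Mmp8, S100a8 and S100a9. The members and lists were chosen with earlier results of these data known. Marker lists not described elsewhere were basal epithelial (1 of 4 fell), endothelial (0 of 3 tested passed in limma, 2 at an unadjusted p under 0.05) and fibroblast (0 of 5 passed, 2 at an unadjusted p under 0.05). Of the 7 luminal markers 1 fell, and all but Cdh1 had an unadjusted p under 0.05 (limma). All 7 were lower in both KO-labelled libraries than in either WT library, beside 32.1% of all genes tested. Of the 7 macrophage markers 0 passed, none at an unadjusted p under 0.05.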

Additional observations from a re-analysis of the deposited data

How the results depend on the processing

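With 2 libraries a group, the calls changed widely with the libraries kept in the fit. Leaving out each library in turn, the number of genes past the threshold ran from 0 to 4269 higher and 0 to 3643 lower, and that of members from 0 to 5 (limma); without the first or the second KO-labelled library 0 passed, with 788 and 746 higher and 597 and 600 lower at an unadjusted p under 0.05. The log2 difference then ran from 2.19 to 2.27 for Gfi1, 0.77 to 0.88 for Hdac1, 0.16 to 0.66 for Hdac2, -0.99 to 0.21 for Hmg20b, -1.25 to -0.09 for Kdm1a, -0.06 to 0.31 for Phf21a, -0.01 to 0.16 for Rcor1, -0.62 to -0.29 for Rcor3 and 0.10 to 0.93 for Zmym2, and the members' median from 0.13 to 0.24. With no filter on low values 2 genes were higher and 0 lower (2760 and 2303 at an unadjusted p under 0.05), 0 members passed, and Gfi1 kept its difference of 2.23 but not its call. With a filter at 5 FPKM Hdac1 passed at 0.82, and the median over the 6 members left was 0.24. Rcor1 turned to -0.02 after median centring and to -0.03 after quantile normalization. Deviations of same-numbered libraries from their group means were hardly correlated (r = -0.06 across genes). With 2 libraries a group, this cannot tell whether same-numbered libraries were handled together. With a replicate block 346 genes were higher and 155 lower, and Gfi1 still passed (limma, adjusted p = 0.0436). Rescaling, median centring and quantile normalization left 5 members without overlap in place of 6. The causes were not tested. Read totals were not used, so no counting error is given for single values.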
